A study of Mus musculus with 15 samples.

Results

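Voltage-gated sodium channels carry the fast inward current that starts and propagates action potentials in sensory axons, and each channel is built from a pore-forming alpha subunit joined by beta subunits that tune its gating and its place in the membrane. In sensory ganglia the alpha subunits fall into those blocked by tetrodotoxin (Scn1a, Scn3a, Scn8a and Scn9a among the genes described here) and those that resist it (Scn10a and Scn11a), the latter being characteristic of nociceptors, the neurons that sense pain. The cornea is supplied by such neurons, whose cell bodies lie in the trigeminal ganglion (TG).

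The 9 genes described here are 6 alpha subunits (Scn1a, Scn3a, Scn8a, Scn9a, Scn10a and Scn11a) and 3 beta subunits (Scn2b, Scn3b and Scn4b), chosen by gene symbol from the 55573 genes of a table of read counts. The table holds 15 TG of male CD1 mice, 5 in each of 3 groups. In every mouse the right cornea had been injured by removal of the central epithelium and anterior stroma, and the right TG was taken on day 12. The groups received vehicle, the resolvin RvD6 (labelled RvD6-standard) or its stereoisomer RvD6si (labelled RvD6-isomer), each of which was applied to the eye 3 times per day. The dose of the lipids in this experiment is not given in the sources used here, and ganglia of uninjured mice were not analysed here, so every difference below is between injured animals. A whole ganglion was measured, of which the neurons that serve the cornea are a small part. In bulk tissue, fewer cells of a type and less RNA per cell cannot be told apart.

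The total count per sample ranged from 4125962 to 9903396. All 10 pan-neuronal, all 7 nociceptor and all 4 satellite glia markers examined were detected in each group, as the label TG implies. Markers of other tissues differed between the groups. The summed level of 8 skeletal muscle markers was 92.3 to 2628 TPM (transcript levels scaled by exonic length and library total) in the RvD6 samples, 20.4 to 183 in vehicle and 14.2 to 41.3 in RvD6si. The summed level of 6 blood and bone marrow markers was 11742 to 21802 TPM with RvD6, 4429 to 9781 with vehicle and 2329 to 26561 with RvD6si, and that of 4 pituitary markers was 557 to 4797, 23.2 to 9215 and 63.6 to 1924 TPM in the same order. The 10 pan-neuronal markers together stood at 4773 to 7193 TPM with RvD6, below the 7606 to 8484 of vehicle in every sample. With RvD6si they stood at 7292 to 9099. The 4 satellite glia markers summed to 5567 to 6692 TPM with RvD6, against 7492 to 8672 with vehicle. Apoe held most of the glia sum, with medians of 5568 TPM with RvD6 and 7515 with vehicle. The ranges of Fabp7, Kcnj10 and Glul overlapped between these groups. As a mean centred log2 CPM (reads scaled to library size), where each gene counts alike, both lists overlapped. The neuronal markers stood at -0.39 to 0.01 with RvD6 and -0.06 to 0.09 with vehicle. The glia markers stood at -0.21 to 0.11 and 0.04 to 0.32. Single neuronal markers differed, as the medians of Rbfox3, Elavl4, Map2 and Syt1 were higher with RvD6 than with vehicle. Those of Snap25, Tubb3, Uchl1, Stmn2, Gap43 and Prph were lower. The summed level of 8 markers of brain neurons and glia was 60.0 to 134 TPM with vehicle, 60.2 to 145 with RvD6 and 60.5 to 219 with RvD6si, and 6, 6 and 7 of the 8 had a count in these groups. Among them Gad2 was at 0 in every sample and Neurod6 in every vehicle and RvD6 sample. The highest were Mobp, with medians of 40.0 TPM with vehicle, 46.3 with RvD6 and 55.4 with RvD6si, Mog and Gfap. In the same order, the medians of Mog were 27.4, 20.3 and 38.3 and those of Gfap 10.4, 23.5 and 32.0.

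Of the 9 subunits, none passed an adjusted p of 0.05 in any of the 3 comparisons (quasi-likelihood F test of edgeR, all 15 samples in a single fit, Benjamini-Hochberg adjustment over the 16567 genes tested). All 9 passed the filter on low counts. Over all genes tested, 0.67% passed for RvD6si against vehicle, 0% for RvD6 against vehicle and 0.235% for RvD6si against RvD6. DESeq2 run on the same 15 samples passed 8.13%, 1.92% and 0.936% of the genes it tested and also called 0 of the 9. At an unadjusted p of 0.05, edgeR set apart Scn4b for RvD6si against vehicle and Scn8a for RvD6si against RvD6, with none for RvD6 against vehicle, while 16% of all genes lay under that value for RvD6si against vehicle, 8.82% for RvD6si against RvD6 and 13.6% for RvD6 against vehicle. For no subunit and no pair of groups did all 5 samples of a group lie outside the range of the other. The share of all genes with such separation was 4.88% for RvD6si against vehicle, 3.72% for RvD6 against vehicle and 1.74% for RvD6si against RvD6.

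The levels of the subunits relative to each other were compared as TPM, which divides the counts by the exonic length of each gene. Scn10a, the main tetrodotoxin-resistant channel of nociceptors, was the highest of the 9, with 75.4 ± 16.03 TPM (SD, n = 15) and above 96.6% of all genes in the table. Scn9a, the channel whose loss in people abolishes pain, followed with 41.2 ± 7.79 TPM, and Scn1a, a channel of larger and mechanically sensitive fibres, with 32.6 ± 6.31 TPM. Scn10a exceeded Scn9a in 15 of 15 samples, by 1.46 to 2.29 times. Scn9a exceeded Scn1a in 15 of 15 as well, though the smallest ratio was 1.013.

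The places from Scn1a down to Scn3b were not settled by these samples. Scn1a exceeded Scn11a in 11 of 15 samples, with a ratio as low as 0.754. Scn8a exceeded Scn4b in 11 of 15, with a ratio as low as 0.81. Scn11a, the second tetrodotoxin-resistant channel, averaged 27.3 ± 8.44 TPM and Scn8a, the channel of nodes of Ranvier, 25.2 ± 5.77 TPM, and Scn11a was the higher of these in 9 of 15 samples. Scn4b (21.9 ± 6.58 TPM) and Scn3b (20.9 ± 7.52 TPM) changed places from sample to sample, with Scn4b higher in 8 of 15. Scn2b (9.82 ± 4.64 TPM) lay below Scn3b in 15 of 15 samples. Scn3a, an alpha subunit prominent in embryonic neurons, was the lowest at 1.35 ± 0.52 TPM and below Scn2b in every sample, by at least 2.58 times.

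**Figure D1:**
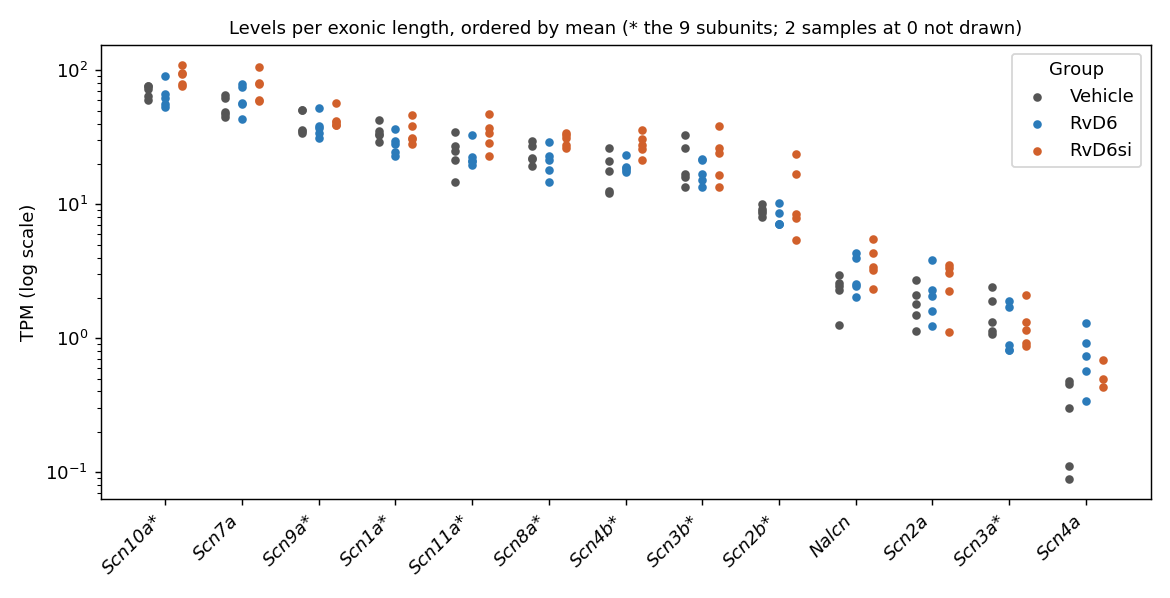
Levels of the 9 subunits (starred) and 4 further sodium channel genes in TPM on a log axis, ordered by their mean over 15 samples, with 1 point per sample coloured by group. Scn10a stands at the top and Scn3a is the lowest of the 9, and the 2 RvD6si samples in which Scn4a is at 0 are not drawn.

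In GRCm38, Scn10a (chr9:119608456-119719322) and Scn11a (chr9:119753759-119825456) lie next to each other on the minus strand, and their levels had a Pearson r of 0.63 over the 15 samples (a description). Scn2b (chr9:45117782-45130070) and Scn4b (chr9:45138395-45154152) are neighbours on the plus strand, with r = 0.26. Scn3a (chr2:65457118-65567627), Scn1a (chr2:66270778-66440840) and Scn9a (chr2:66480080-66634962) are on the minus strand of chromosome 2. Scn3b is at chr9:40269217-40291618 on the plus strand and Scn8a at chr15:100869858-101045938 on the plus strand. The promoters of Scn10a and Scn11a are printed because these neighbours are the tetrodotoxin-resistant pair and varied together. They are given by RefSeq on GRCm38.p6 and run from 250 bases before to 50 bases after the start of the gene in RefSeq. They lie at chr9:119718983-119719282 and chr9:119825407-119825706, both on the minus strand and written 5′ to 3′. The Scn10a window lies wholly inside the Scn10a span given above, which reaches 119719322, so the 2 annotations place this start differently. By the annotation used for the counts, it holds no bases from before the gene. Capitals mark matches, on either strand, to 8 motifs searched, which were the TATA box TATAAA, the GC box GGGCGG, the E-box CANNTG, the short form of the cAMP response element TGACG, the AP-1 site TGANTCA, the RUNX sites TGTGGT and, with another base, TGCGGT, and the homeodomain site TAATTA.
Scn10a: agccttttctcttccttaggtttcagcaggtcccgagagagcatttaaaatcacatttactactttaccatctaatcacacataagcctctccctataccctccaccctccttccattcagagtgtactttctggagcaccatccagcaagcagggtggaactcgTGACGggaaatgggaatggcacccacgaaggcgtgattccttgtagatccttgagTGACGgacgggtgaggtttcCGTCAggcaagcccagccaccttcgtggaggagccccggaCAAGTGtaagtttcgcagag
Scn11a: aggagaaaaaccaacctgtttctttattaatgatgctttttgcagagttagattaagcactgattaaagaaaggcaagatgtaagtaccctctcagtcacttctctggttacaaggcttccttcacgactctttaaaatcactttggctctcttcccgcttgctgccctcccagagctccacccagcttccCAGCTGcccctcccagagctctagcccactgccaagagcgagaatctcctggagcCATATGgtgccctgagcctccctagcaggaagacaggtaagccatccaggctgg
The Scn10a promoter held 3 matches to TGACG, which 20.8% of 32851 promoters of this length contain at least once, while the Scn11a promoter held 0. CANNTG, the E-box, matched once in Scn10a and at 2 places in Scn11a and occurs in 72.3% of promoters. The other 6 motifs had no match in either. The matches are letters in the sequence and were not tested as binding sites.

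Scn10a took the largest share of the 6 alpha subunits in each of the 15 samples. Of their summed TPM, Scn10a made up 35.8 ± 2.47% with vehicle, 36.8 ± 2.16% with RvD6 and 38.7 ± 2.37% with RvD6si (SD, n = 5 each). Scn10a and Scn11a together, the tetrodotoxin-resistant part, made up 48.2 ± 2.22%, 49.96 ± 2.86% and 53.0 ± 3.11% in the same order. The ranges overlapped, at 45.8 to 51.7%, 44.96 to 52.2% and 47.7 to 55.2%.

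Among the tetrodotoxin-sensitive subunits, the share of Scn9a was 20.99 ± 1.52% with vehicle, 21.6 ± 0.686% with RvD6 and 18.5 ± 0.736% with RvD6si. The 5 RvD6si samples (17.4 to 19.5%) lay below all 5 RvD6 samples (20.9 to 22.7%) but overlapped vehicle (18.96 to 22.5%). The shares of all other alpha subunits overlapped between the groups. A share depends on the other subunits as well, and the log2 difference of Scn9a itself between RvD6si and RvD6 was -0.02 ± 0.15 (SE, edgeR). The share of Scn1a was 17.8 ± 1.74%, 15.96 ± 1.14% and 14.8 ± 2.21% with vehicle, RvD6 and RvD6si, that of Scn8a 12.3 ± 1.23%, 11.8 ± 1.58% and 13.1 ± 1.55%, and Scn3a stayed between 0.388 and 1.07% in every sample. These shares are descriptions and were not tested.

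**Figure D2:**
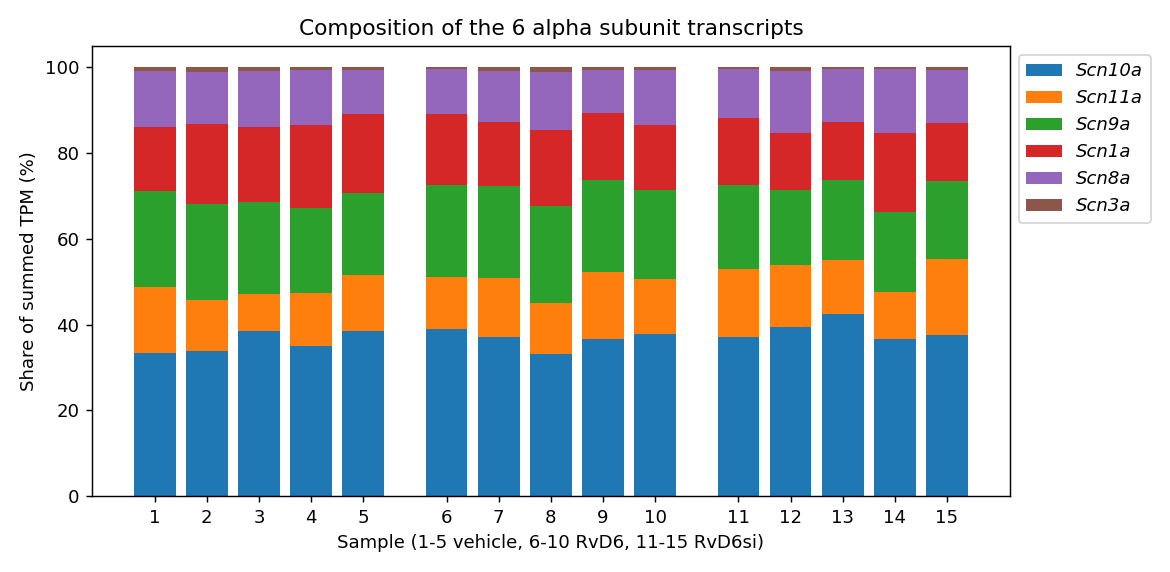
Share of the summed TPM of the 6 alpha subunits taken by each, in percent, with 1 bar per sample (samples 1 to 5 vehicle, 6 to 10 RvD6, 11 to 15 RvD6si). Scn10a takes the widest band in each bar, from 33.2 to 42.5%, and Scn3a the thinnest.

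No test between groups used TPM, and marker sums and shares in TPM are given as descriptions. A normalized count (the read count divided by the size factor of DESeq2) corresponded to more TPM in the RvD6si libraries, by 0.19 ± 0.05 on the log2 scale relative to vehicle (SD, n = 5), and to nearly the same in RvD6, at -0.02 ± 0.06. As a result Scn10a stood at 76.6 to 109 TPM with RvD6si, above the 60.2 to 76.2 TPM of vehicle in every sample, while its normalized counts overlapped. The comparisons that follow use normalized counts and the edgeR fit.

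Scn9a had normalized counts of 1913, 1876, 1506, 1364 and 1436 in vehicle samples 1 to 5, of 1532, 1955, 1585, 1246 and 1368 in RvD6 samples 6 to 10, and of 1870, 1452, 1443, 1357 and 1383 in RvD6si samples 11 to 15. The groups overlapped throughout, with sample 11 well above the other 4 of its group. The log2 difference was -0.11 ± 0.15 (SE) for RvD6si against vehicle (95% interval -0.42 to 0.19), -0.09 ± 0.15 for RvD6 against vehicle (-0.39 to 0.21) and -0.02 ± 0.15 for RvD6si against RvD6 (-0.33 to 0.28). In folds, the intervals ran from 0.748 to 1.14, from 0.761 to 1.16 and from 0.796 to 1.21. Scn9a shares 180 exonic bases with Gm13629, a gene on the opposite strand with at most 109 reads in a sample, and reads were counted without strand.

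Scn1a gave 1104, 1384, 1077, 1146 and 1225 normalized counts with vehicle, 1033, 1188, 1075, 788 and 859 with RvD6 and 1313, 963, 923, 1169 and 873 with RvD6si. Of the RvD6 samples 4 and of the RvD6si samples 3 lay below every vehicle sample, while the rest fell within the vehicle range. The log2 difference from vehicle was -0.28 ± 0.15 for RvD6 (95% interval -0.59 to 0.03, adjusted p = 0.419 by edgeR) and -0.18 ± 0.15 for RvD6si (-0.49 to 0.12, adjusted p = 0.574).

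Scn8a gave 1374, 1255, 1141, 1091 and 954 normalized counts with vehicle, 919, 1340, 1174, 715 and 1053 with RvD6 and 1329, 1488, 1190, 1346 and 1161 with RvD6si. The RvD6si samples lay at the upper end, but 3 of them were within the RvD6 range. RvD6si exceeded RvD6 by 0.33 ± 0.16 on the log2 scale (95% interval 0.01 to 0.66, unadjusted p = 0.0447, adjusted p = 0.544 by edgeR), and the two-sided exact permutation test of the same samples gave p = 0.0714. Against vehicle the log2 difference was 0.16 ± 0.15 with RvD6si and -0.18 ± 0.15 with RvD6, both intervals including 0.

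Scn3a was counted with 71.4, 89.9, 56.2, 42.3 and 45.2 normalized reads in vehicle, 33.6, 70.3, 70.0, 32.2 and 35.2 in RvD6 and 42.9, 73.5, 30.1, 32.1 and 40.6 in RvD6si samples. Each treated group held 3 samples below all vehicle samples and at least 1 well inside the vehicle range. At these low counts the intervals were wide, from -1.23 to 0.27 on the log2 scale around a difference of -0.48 for RvD6si against vehicle and from -1.10 to 0.39 around -0.36 for RvD6, so that a fall to 0.428 of the vehicle level with RvD6si is within the interval.

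The tetrodotoxin-resistant Scn10a had 1778, 1775, 1691, 1498 and 1818 normalized counts with vehicle, 1740, 2110, 1443, 1323 and 1543 with RvD6 and 2217, 2054, 2065, 1675 and 1759 with RvD6si. The samples 11, 12 and 13 of RvD6si lay above every vehicle sample and the other 2 within the vehicle range. Its spread was 7.51% of the mean in vehicle, 18.9% with RvD6 and 11.7% with RvD6si, and its standard error in the fit was the smallest of the 9 subunits in each comparison. The log2 difference was 0.19 ± 0.13 for RvD6si against vehicle (95% interval -0.09 to 0.46, adjusted p = 0.524 by edgeR), -0.08 ± 0.13 for RvD6 against vehicle (-0.36 to 0.19) and 0.27 ± 0.13 for RvD6si against RvD6 (-0.01 to 0.55, adjusted p = 0.576). In folds, the first interval ran from 0.939 to 1.38 and the last from 0.995 to 1.46.

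Scn11a ranged from 287 to 602 normalized counts with vehicle, from 381 to 574 with RvD6 and from 370 to 711 with RvD6si. Its log2 difference was 0.28 ± 0.20 for RvD6si against vehicle, -0.05 ± 0.20 for RvD6 against vehicle and 0.33 ± 0.20 for RvD6si against RvD6, and all 3 intervals included 0 (the first from -0.14 to 0.71).

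**Figure D3:**
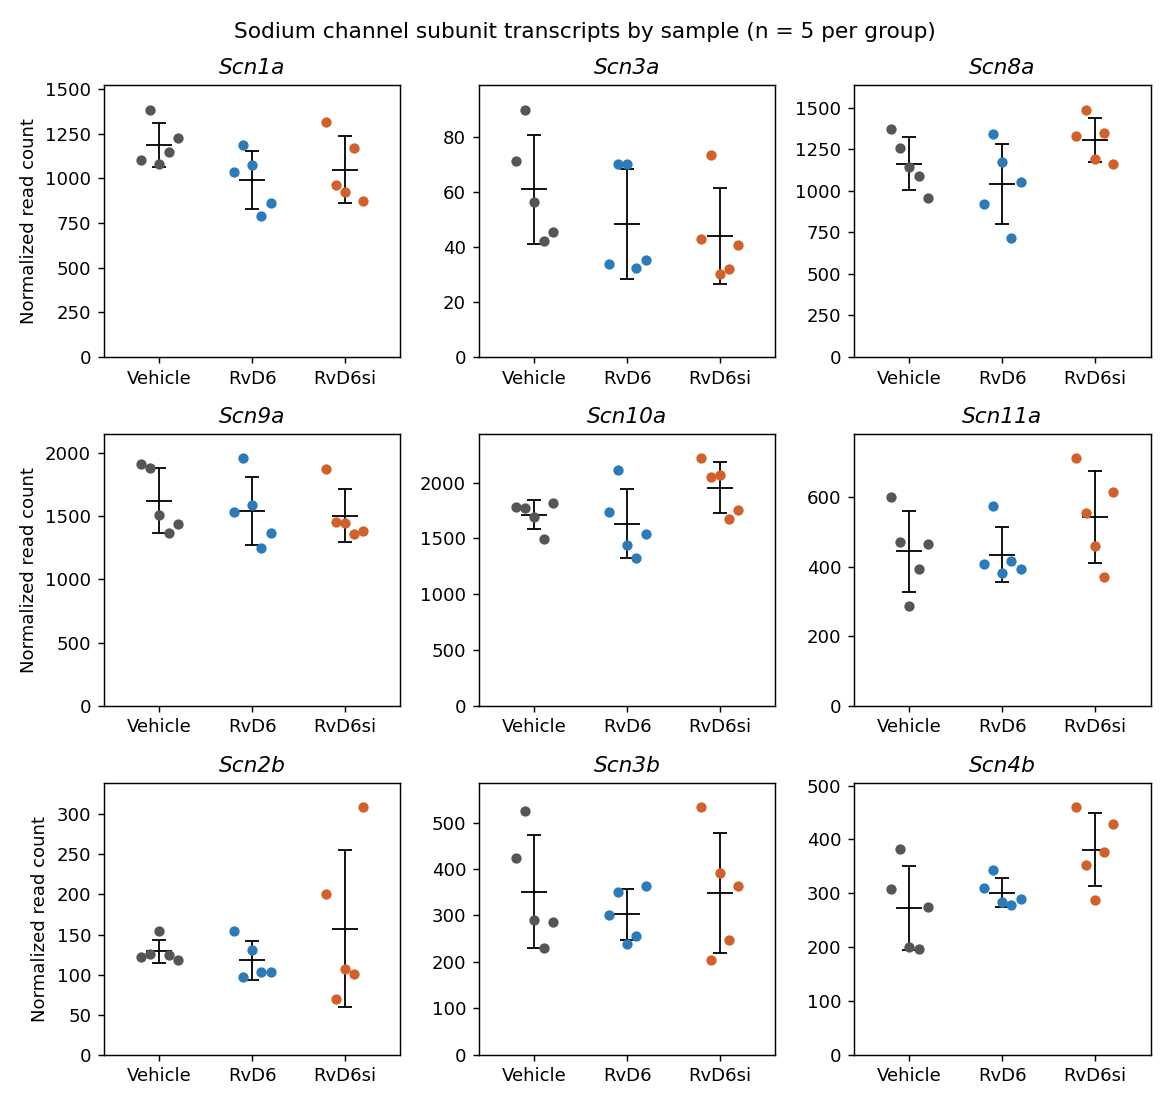
Normalized read counts of the 9 subunits, with 1 panel per gene, 1 point per sample and bars for the mean and SD of 5 samples in each group. The groups overlap in each panel, the mean of Scn4b is highest with RvD6si (samples from 288 to 460), and 2 RvD6si samples of Scn2b stand above all others.

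Of the beta subunits, Scn4b, which supports the resurgent current of fast-firing neurons, had the smallest p of the 9 genes. Its normalized counts were 308, 382, 201, 197 and 275 with vehicle, 310, 343, 283, 279 and 290 with RvD6 and 460, 352, 288, 377 and 429 with RvD6si. Samples 11 and 15 of RvD6si lay above every vehicle sample, and 4 of the 5 lay above every RvD6 sample. The mean was 272 ± 77.6 with vehicle, 301 ± 26.5 with RvD6 and 381 ± 67.2 with RvD6si (SD, n = 5).

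The log2 difference of Scn4b between RvD6si and vehicle was 0.48 ± 0.19 (95% interval 0.08 to 0.88, unadjusted p = 0.022, adjusted p = 0.221 by edgeR), equal to 1.39 times with an interval of 1.05 to 1.84. The two-sided exact permutation test gave p = 0.0635 for this pair and p = 0.0397 for RvD6si against RvD6, where edgeR gave a log2 difference of 0.35 ± 0.19 with an adjusted p of 0.631. Permutation p-values were computed for 27 pairs of subunit and comparison, and also for 4 further sodium channel genes. They were not adjusted, and the smallest that 5 against 5 samples allow is 0.00794. RvD6 against vehicle differed by 0.13 ± 0.19.

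Scn2b, which is linked to the alpha subunit by a disulfide bond, gave 123, 125, 155, 124 and 118 normalized counts with vehicle, 155, 97.3, 130, 103 and 103 with RvD6 and 201, 69.5, 107, 100 and 309 with RvD6si. Samples 11 and 15 of RvD6si were the highest of all 15 and the other 3 were below every vehicle sample. The spread with RvD6si was 62.3% of the mean, against 11.5% with vehicle, where counting alone would give 8.36% and 8.09%. The log2 difference of 0.27 ± 0.32 between RvD6si and vehicle turned to -0.12 without sample 15 and to -0.49 without both samples, so the direction rested on them. Sample 15 had the lowest total count of the 15, 4125962, and a mean centred log2 CPM (reads scaled to library size) of the blood and bone marrow markers of 2.49, against -2.26 to -1.84 in the other 4 RvD6si samples. The part of depth and of these markers in the Scn2b values was not tested. Without the 2 samples none of the 9 subunits passed in any comparison.

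Scn3b, a beta subunit held without a covalent bond, ranged from 229 to 526 normalized counts with vehicle, 240 to 364 with RvD6 and 204 to 533 with RvD6si. The group means were 351 ± 121, 303 ± 55.3 and 348 ± 130 (SD, n = 5), and the log2 differences of -0.02 ± 0.26 for RvD6si and -0.23 ± 0.26 for RvD6 against vehicle were smaller than their errors.

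**Figure D4:**
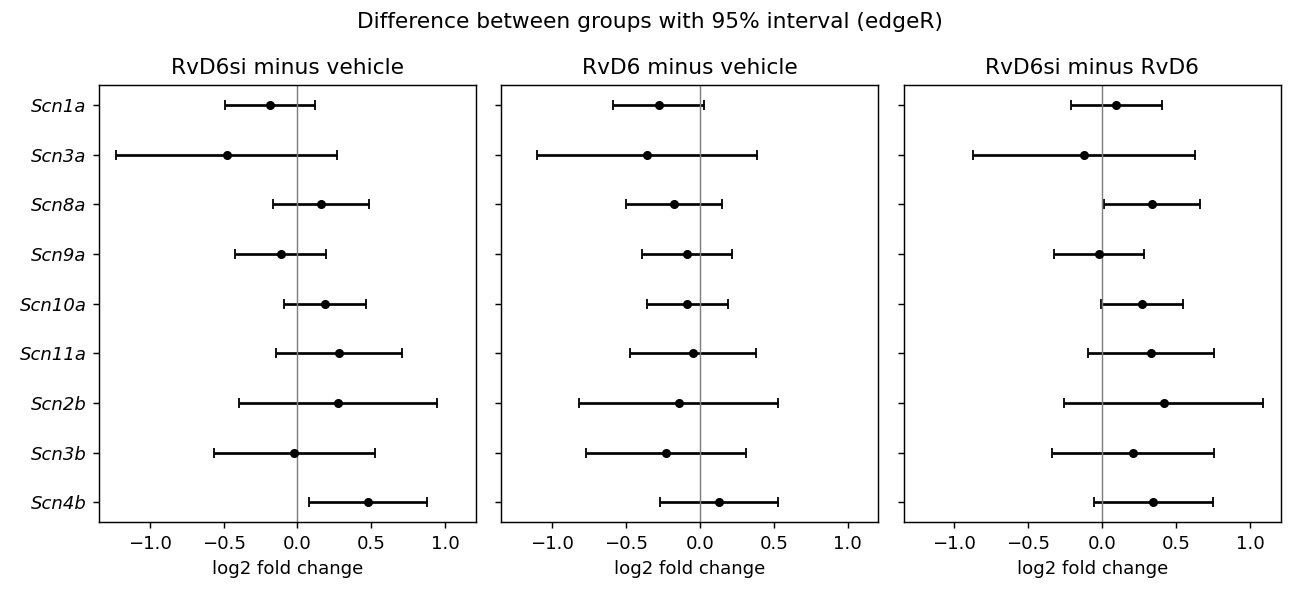
Log2 fold change of each subunit (point) with its 95% interval from the edgeR fit (bar) in 3 comparisons. The interval of Scn4b for RvD6si against vehicle (0.08 to 0.88) and that of Scn8a for RvD6si against RvD6 (0.01 to 0.66) lie above 0, and the remaining 25 include it.

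Across the 9 genes the median log2 difference was 0.16 for RvD6si against vehicle, with 5 positive and 4 negative, -0.14 for RvD6 against vehicle, with 1 positive and 8 negative, and 0.27 for RvD6si against RvD6, with 7 positive and 2 negative. The medians over all 16567 genes tested were 0.02, 0.02 and -0.0039. The 2 comparisons with vehicle share the vehicle samples, and the subunits share libraries, so these counts are descriptions. Of the 10 pan-neuronal markers, 5 were positive and 5 negative for RvD6si against vehicle, 4 positive and 6 negative for RvD6 against vehicle, and 10 positive for RvD6si against RvD6, and their part in these values was examined only through the covariate that follows. With the mean level of these markers as a covariate in the edgeR fit, 5 of the 8 negative differences of RvD6 against vehicle became positive. With the level of the muscle markers as a covariate, the differences between RvD6si and RvD6 of Scn8a and Scn4b were -3.1e-05 and -0.00025. The SE of the Scn8a value was 0.25, against 0.16 without the covariate. The muscle level was 0.08 to 4.88 in RvD6 and -2.18 to -1.26 in RvD6si samples. The neuronal level was -0.39 to 0.01 and 0.06 to 0.26, also without overlap. In this comparison neither covariate can be told apart from treatment, so the adjusted differences cannot be assigned to one of them. None of the 9 passed in any comparison under either covariate.

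The direct comparison of the stereoisomers covered 9 genes. RvD6 and RvD6si have the same atoms joined in the same order and differ in their arrangement in space, and the position of that difference is not given in the sources used here. The differences ran from -0.12 for Scn3a to 0.42 for Scn2b on the log2 scale, and none passed. The value of Scn2b was 0.0251 without sample 15 of RvD6si and -0.32 without samples 11 and 15. The narrowest interval was that of Scn10a and the widest that of Scn3a, -0.88 to 0.63, which is 0.545 to 1.54 times in folds, against 0.995 to 1.46 times for Scn10a.

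From sample to sample the subunits tended to vary together. Of the 36 pairs among the 9 genes, 34 had a positive Pearson r of log2 CPM over the 15 samples, with a median of 0.40, and 33 were positive after the group means had been subtracted. The same genes had a median r between -0.03 and 0.02 with all genes tested. The highest pairs were Scn11a with Scn4b (r = 0.72), Scn3a with Scn9a (r = 0.67) and Scn1a with Scn9a (r = 0.67). Scn2b had the lowest median r with the other 8, at 0.09, though its r with Scn3b was 0.43. The points share libraries, depth and the share of neuronal RNA, with whose marker level the 9 genes had r from 0.15 (Scn2b) and 0.18 (Scn3b) to 0.72 (Scn8a) and 0.78 (Scn10a), and these values are descriptions.

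**Figure D5:**
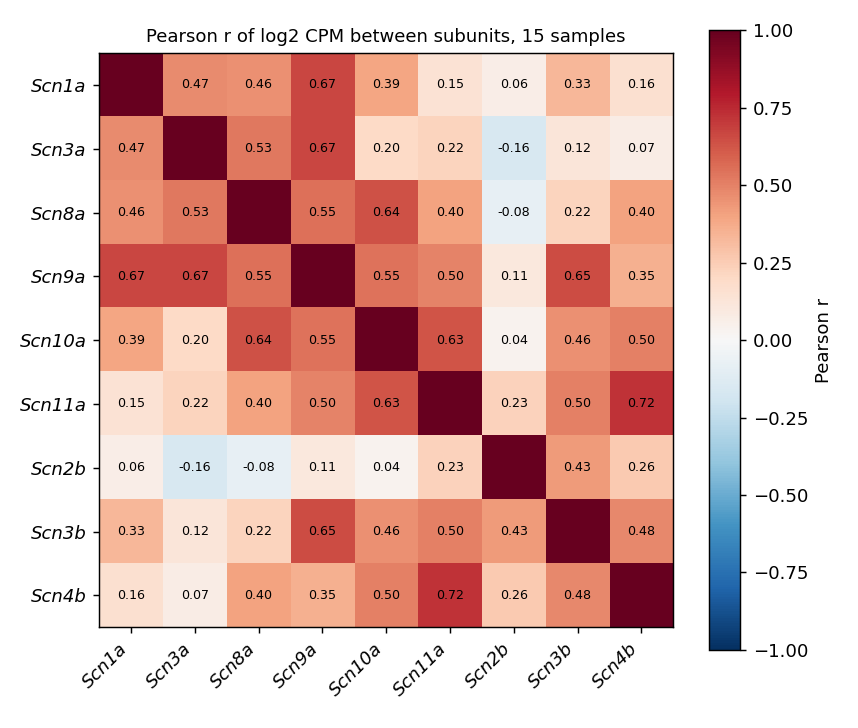
Pearson r of log2 CPM between each pair of subunits over 15 samples, from -1 (blue) to 1 (red). The row of Scn2b is the palest by its median, with values from -0.16 to 0.43, the last with Scn3b. The highest value is that of Scn11a with Scn4b, 0.72.

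The genes whose pattern over the 15 samples was most like that of each subunit were outside the family. They are the highest of the 16567 genes tested, so high values can arise by selection alone, and they are descriptions. For Scn10a they were Apbb2 (r = 0.91), Slc7a14 (r = 0.89) and Atp13a2 (r = 0.80). For Scn11a they were Hip1r (r = 0.89), Ube3c (r = 0.86) and Rbms3 (r = 0.86), and for Scn9a they were Atp2b1 (r = 0.84), a plasma membrane calcium pump, Ckap5 (r = 0.84) and Akap6 (r = 0.83). No subunit was among the 3 genes most like another subunit.

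For the tetrodotoxin-sensitive genes the closest were Rbm6-ps1, Rrp1b and Tmem246 for Scn1a (r = 0.87, 0.84 and 0.79), Uba6, Slco5a1 and Hras for Scn3a (r = 0.87, 0.85 and 0.82) and Clip4, Parm1 and Tcp11l1 for Scn8a (r = 0.89, 0.89 and 0.85). For the beta subunits they were Kif26b and Atp8a2 for Scn4b (r = 0.89 and 0.85), Thrap3, Alms1 and Scd4 for Scn3b (r = 0.77, 0.74 and 0.74) and Scx, Gpr3 and Rasl2-9 for Scn2b (r = 0.76, 0.73 and 0.73).

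Of the 4 further sodium channel genes described here none passed an adjusted p of 0.05 in any comparison. Scn7a, the sodium-sensing channel of glia and some neurons, stood at 64.0 ± 17.1 TPM (SD, n = 15), second to Scn10a. Nalcn, the sodium leak channel, differed by 0.51 ± 0.28 with RvD6si and 0.41 ± 0.28 with RvD6 from vehicle, Scn7a by 0.32 ± 0.17 and 0.21 ± 0.17, and Scn2a, a channel of central neurons, by 0.34 ± 0.33 and 0.25 ± 0.33, all with intervals that include 0. Scn4a, the channel of skeletal muscle, had 7.82 to 28.5 normalized counts with RvD6 against 1.97 to 11.2 with vehicle, and 0 counts in RvD6si samples 12 and 14, where 3 reads would be 2.40 and 3.10 normalized counts. The skeletal muscle markers moved with it: 8 of 8 were higher at an unadjusted p of 0.05 for RvD6 against vehicle, and 8 of 8 passed the adjusted threshold for RvD6si against RvD6, all lower with RvD6si. Their part in the values of Scn4a was not tested.

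Proteins that bind or anchor the channels were covered by 3 lists. Of 4 FGF homologous factors, which bind the tail of the alpha subunit and shift its inactivation, 7 partners at the axon initial segment and node, and 11 genes of trafficking and modulation, 0 passed in any comparison by edgeR. At an unadjusted p of 0.05, 2 partners were higher and 1 factor and 1 trafficking gene were lower for RvD6si against vehicle. For RvD6 against vehicle 1 partner was higher and 1 factor and 4 trafficking genes were lower, and for RvD6si against RvD6 1 gene of each list was higher. Of all genes tested, 16%, 13.6% and 8.82% lay under that value in the same order of comparisons. The gene with the smallest p of each list is described below, so these genes were picked by their values. DESeq2, whose adjusted p is given for them, passed 8.13% of the genes it tested for RvD6si against vehicle.

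Fgf12 had 1045 to 1473 normalized counts with vehicle, 843 to 1238 with RvD6 and 824 to 989 with RvD6si. All 5 RvD6si samples and 4 of 5 RvD6 samples lay below every vehicle sample. Of all genes tested, 4.88% had no overlap between RvD6si and vehicle. The log2 difference was -0.55 ± 0.14 for RvD6si (95% interval -0.84 to -0.26, adjusted p = 0.0638 by edgeR) and -0.44 ± 0.14 for RvD6 (adjusted p = 0.191). DESeq2 on all samples gave Fgf12 an adjusted p of 0.00323 for RvD6si against vehicle.

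Cntn1, an adhesion protein of the node, averaged 2594 ± 474 normalized counts with vehicle, 2867 ± 607 with RvD6 and 3723 ± 797 with RvD6si, and 3 of the RvD6si samples lay above every vehicle sample. Its log2 difference for RvD6si against vehicle was 0.51 ± 0.17 (adjusted p = 0.135 by edgeR, 0.0452 by DESeq2). S100a10, the annexin partner that carries Scn10a channels to the membrane, averaged 3738 ± 594, 2892 ± 252 and 2740 ± 525 normalized counts in the same order. Its log2 difference from vehicle was -0.45 ± 0.14 with RvD6si (adjusted p = 0.121 by edgeR, 0.0359 by DESeq2) and -0.38 ± 0.14 with RvD6 (adjusted p = 0.262 by edgeR).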

How the data were processed

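RNA of each TG was reverse transcribed with an oligo-dT primer (Smart-seq2) and made into unstranded Nextera XT libraries. The deposited values are raw read counts per gene, which the authors obtained by aligning to GRCm38 with Rsubread and counting exons with featureCounts (Subread 1.6.5 in the submitters' notes, 1.5.0-p1 in the file header), without strand. The authors' DESeq2 results were not used here. Symbols came from GENCODE on the same build and named 99.7% of identifiers. With R 4.3.3, edgeR 4.0.16 was fitted to all 15 samples (TMM, minimum count 10, total 15, 16567 genes kept), and DESeq2 1.42.0 was an alternative. Python 3.11.15 and SciPy 1.17.1 gave the exact permutation tests. TPM used the deposited exonic lengths.

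The subunits and lists were chosen with earlier results of these data known. Named genes are the 9 subunits, 4 other sodium channel genes, the gene of smallest p in each further list and the 3 genes most like each subunit, and some genes that these rules name are not reported here. Nothing states that the samples of a group were processed independently, so p-values measure the spread between samples. For pairs of samples of a group, the squared difference of counts relative to counting noise averaged 11.3 to 49.9 (chi-square per gene). This is a ratio of variances averaged over many genes, and not of the spreads in percent given for the subunits. On simulated counts for RvD6si against vehicle with 16567 genes, edgeR recovered 32% of genes changed by a log2 fold of 1 and 60% of those changed by 2. DESeq2 recovered 44% and 68%, with 21 false calls of 133, against 1 of 93 for edgeR. The changed genes were drawn at random from all genes tested, so these shares are not those of the subunits. The median standard error for RvD6si against vehicle was 0.31 over all genes tested and 0.19 over the 9 subunits.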

Additional observations from a re-analysis of the deposited data

Results flagged for a closer look

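In 39 groups of 5 (13 sodium channel genes in 3 groups), the highest or lowest sample was set against the rest of its group by Dixon's test, which chance passes in about 1 group in 20. It marked 3 highest samples and 0 lowest. Scn9a reached 1870 normalized counts in RvD6si sample 11, where the other 4 samples lay between 1357 and 1452. Scn11a reached 574 in RvD6 sample 7, with the others between 381 and 415. Scn2b reached 155 in vehicle sample 3, with the others between 118 and 125.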

How the results depend on the processing

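None of the 9 subunits passed an adjusted p of 0.05 in any comparison under any alternative, and the smallest adjusted p was 0.107 (Scn4b, RvD6si against vehicle, DESeq2). Of 270 subunit values under the 10 alternatives that gave each of them and left no sample out of its groups, 251 kept their direction. Depth limited Scn3a most, where counting alone gives a spread of 11.8 to 15.8%. No paired analysis was possible because no replicate number occurs in 2 groups. The order of the 9 levels was the same with FPKM and without the 10 most counted genes. Both settings rescale all genes of a sample by a common factor, so the order within a sample could not change. The pairs of samples 8 and 9 of RvD6 (muscle) and 11 and 15 of RvD6si (Scn2b), were left out as alternatives chosen after seeing the data. The cause of the changes below was not tested.

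Genes called for RvD6si against vehicle (111) became 920 and 979 with DESeq2 on all samples or 2 groups, 315 with 10 counts in every sample, 63 without the length trend, 0 with the neuronal covariate and 0 without samples 11 and 15, and ranged from 0 to 229 with single samples left out, being 0 without sample 11. For RvD6 against vehicle (0) they became 369 and 664 with DESeq2, 38 with edgeR on 2 groups, 56 without the filter, 24 with 10 counts, 1 without the length trend, 3 with the muscle covariate, 18 without samples 11 and 15, and 0 to 51 with single samples left out, being 51 without sample 15. For RvD6si against RvD6 (39) they became 185 and 182 with DESeq2, 17 with edgeR on 2 groups, 59 without the filter, 23 with 10 counts, 1 and 3 with the neuronal and muscle covariates, 2 without samples 8 and 9, and 2 to 156 with single samples left out, being 2 without sample 11, 13 or 14 and 156 without sample 15. Of the genes in the 4 neighbouring lists, 0 were called for RvD6si against vehicle, 3 by DESeq2 on all samples (S100a10, Cntn1 and Fgf12), which called 8.13% of all the genes it tested, 2 by DESeq2 on 2 groups (Cntn1 and Fgf12), and 1 (Fgf12) with 10 counts or without the length trend.

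These log2 differences changed sign. For RvD6si against RvD6, neither covariate can be told apart from treatment, as given above. With the neuronal covariate, RvD6si against vehicle gave Scn4a 0.17, RvD6 against vehicle gave Scn3a 0.15, Scn8a 0.0024, Scn9a 0.14, Scn10a 0.0904 and Scn11a 0.24, and RvD6si against RvD6 gave Scn1a -0.25, Scn10a -0.0569, Scn11a -0.19, Scn2a -0.35, Scn7a -0.15 and Nalcn -0.57. With the muscle covariate, RvD6 against vehicle gave Scn8a 0.0917, Scn9a 0.17, Scn10a 0.25, Scn11a 0.12 and Scn3b 0.22, and RvD6si against RvD6 gave Scn1a -0.14, Scn8a -3.1e-05, Scn10a -0.14, Scn3b -0.34, Scn4b -0.00025, Scn2a -0.43 and Nalcn -0.69. Without the filter, Scn9a was 0.0064 for RvD6si against RvD6. Without samples 8 and 9, Scn10a was 0.047 and Scn11a 0.0209 for RvD6 against vehicle, and Scn2a -0.0159 and Nalcn -0.10 for RvD6si against RvD6. Without samples 11 and 15, Scn2b was -0.49 for RvD6si against vehicle, and Scn2b -0.32, Scn3b -0.0674 and Scn7a -0.0677 for RvD6si against RvD6. With single samples left out, the range crossed 0 for RvD6si against vehicle for Scn2b (-0.12 to 0.465), Scn3b (-0.221 to 0.17) and Scn4a (-0.53 to 0.254), for RvD6 against vehicle for Scn11a (-0.173 to 0.0829), and for RvD6si against RvD6 for Scn3a (-0.39 to 0.0546), Scn9a (-0.11 to 0.0728), Scn2a (-0.0412 to 0.339), Scn7a (-0.0022 to 0.191) and Nalcn (-0.0864 to 0.298).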
